A study of Mus musculus with 6 samples.

Results

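The platelet-derived growth factor (PDGF) ligands and receptors were followed in the developing mouse soft palate as a set of 6 genes, Pdgfa, Pdgfb, Pdgfc, Pdgfd, Pdgfra and Pdgfrb. They were taken by name from the 21938 genes of the deposited table, and all 6 were measured in every library. The study compared 3 mutant libraries (replicates 5, 6 and 7) with 3 control libraries (replicates 1, 2 and 3) of soft palate at E14.0. Mutants were Osr2-Cre;b-cateninfl/fl, in which Cre from the Osr2 locus, active in palatal mesenchyme, removes β-catenin, the transducer of canonical Wnt signalling. Controls carried the same floxed β-catenin alleles without Cre according to the extraction protocol, while their strain and genotype fields read wild type. Cells without Osr2-Cre, such as epithelium, endothelium and muscle, remain in the dissected tissue and in the values. The labels do not say whether a library came from 1 embryo or several, and the p-values reflect only the spread among these 6 libraries, which may be partly technical.

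PDGFs are secreted dimers that activate receptor tyrosine kinases on mesenchymal cells. PDGF-A and PDGF-C act through the receptor encoded by Pdgfra, PDGF-D mainly through the one encoded by Pdgfrb, and PDGF-B through either. In mice, Pdgfra is needed in cranial neural crest for closure of the face and palate, Pdgfc loss can cause cleft palate, and Pdgfb from endothelium recruits pericytes that carry the β receptor. Levels are given in CPM, reads per 1000000 reads counted to genes. Changes are mutant minus control after taking log2(CPM + 1), a scale on which low genes appear to change less than they do.

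No PDGF ligand or receptor passed an adjusted p of 0.05 between mutant and control. Pdgfb was lower in every mutant library than in any control library, at 0.539 times the control mean, and Pdgfc had the second smallest p at 0.824 times. The more abundant receptor, Pdgfra, and its partner Pdgfrb overlapped between the groups, as did Pdgfa and Pdgfd. In limma 0 of the 6 genes were called after Benjamini-Hochberg adjustment over all genes, against 0.479% of the whole table. An unadjusted p below 0.05 was reached by 2 of 6, Pdgfb and Pdgfc, both lower in the mutant, against 21.4% of all genes. Groups that did not overlap were found for 1 of 6, against 27.8% of all genes, so the count among the members was not above that of the table.

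The promoters are shown first because β-catenin acts on genes through TCF/LEF factors, which bind the letters CTTTG as the core of their site. RefSeq windows of 300 bases on GRCm38.p6, most of each lying upstream of the start, were matched for 4 of the 6 genes (Pdgfra, Pdgfc, Pdgfd and Pdgfa, the last with a pair of starts) and not for Pdgfb and Pdgfrb. The Pdgfra window is chr5:75152001-75152300, plus strand. The Pdgfc window is chr3:81036166-81036465, plus strand, and the upstream Pdgfa window is chr5:138994895-138995194, minus strand. Each is written 5′ to 3′ on the gene's strand with the core in capitals on either strand (CAAAG is the core on the opposite strand):
Pdgfra: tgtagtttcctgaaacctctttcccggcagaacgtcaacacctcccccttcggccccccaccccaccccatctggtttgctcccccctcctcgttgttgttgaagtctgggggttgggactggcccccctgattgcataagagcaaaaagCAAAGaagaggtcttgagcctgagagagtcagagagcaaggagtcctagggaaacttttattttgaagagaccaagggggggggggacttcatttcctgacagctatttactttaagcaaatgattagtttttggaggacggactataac
Pdgfc: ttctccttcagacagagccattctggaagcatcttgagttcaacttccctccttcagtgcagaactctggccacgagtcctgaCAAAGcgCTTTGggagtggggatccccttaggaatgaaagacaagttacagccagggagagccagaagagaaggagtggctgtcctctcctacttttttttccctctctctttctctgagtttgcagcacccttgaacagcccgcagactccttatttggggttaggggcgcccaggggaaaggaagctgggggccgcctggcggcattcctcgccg
Pdgfa: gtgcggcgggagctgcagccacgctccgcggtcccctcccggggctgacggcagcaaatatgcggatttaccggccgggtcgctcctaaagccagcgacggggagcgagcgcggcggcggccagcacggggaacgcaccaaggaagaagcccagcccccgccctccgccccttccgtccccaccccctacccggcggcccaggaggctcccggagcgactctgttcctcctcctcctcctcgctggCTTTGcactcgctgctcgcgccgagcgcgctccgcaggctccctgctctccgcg
The core stood at -100 bases from the start in Pdgfra, at -167 and -160 bases in Pdgfc, at -4 bases in Pdgfa and at -187 bases in Pdgfd, counting the start as 0. It was not found in the other Pdgfa window, chr5:138994232-138994531. These starts are those of RefSeq, while the gene spans given below are from GENCODE vM21 and can begin elsewhere. Each Pdgfa window lies inside the span of Pdgfa. Such a short motif is common, and 53.9% of 32851 promoter windows held it on one strand or the other. Longer forms, the core followed by AA, AT, TA or TT and so each containing it, were in 16.9% of all windows and in none of these 5. A match or its absence in these windows describes letters only.

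Pdgfra (chromosome 5, 75152292 to 75198215, plus strand, GRCm38) encodes the receptor for PDGF-A and PDGF-C and was the most abundant of the 6 genes, above 98.5% of all genes by mean CPM. It measured 320.5, 320.4 and 268.4 CPM in mutant replicates 5, 6 and 7, against 425.7, 321.0 and 279.7 CPM in control replicates 1, 2 and 3. Control replicate 1 stood above the other 5 libraries, and the rest of the values ran together across the groups. The means were 303.1 ± 30.1 CPM in mutants and 342.1 ± 75.3 CPM in controls (SD, n = 3 each). The log2 change was -0.16 ± 0.15 (SE), and limma gave an adjusted p of 0.588. The 95% interval of the fold in CPM + 1, called the fold interval below and not adjusted for the number of genes, was 0.704 to 1.14. Without control replicate 1 the change was 0.01, so its direction rested on that library.

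Pdgfrb (chromosome 18, 61045150 to 61085061, plus strand) encodes the β receptor, which in tissues marks pericytes and part of the mesenchyme. It measured 81.8, 74.6 and 67.1 CPM in mutant replicates 5, 6 and 7, against 95.6, 94.4 and 58.6 CPM in control replicates 1, 2 and 3. The mutant values lay inside the range of the controls, whose spread was wider. Means were 74.5 ± 7.37 CPM in mutants and 82.9 ± 21.0 CPM in controls (SD, n = 3 each). The log2 change was -0.12 ± 0.18 (SE), with limma's adjusted p at 0.733 and a fold interval of 0.690 to 1.22. It was -0.35 with control replicate 3 left out, -0.0036 without control replicate 1 and -0.01 without control replicate 2.

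Pdgfra exceeded Pdgfrb in every library, and the ratio overlapped between the groups. By CPM it was 3.92, 4.30 and 4.002 in the mutants and 4.45, 3.40 and 4.77 in the controls. Divided by exon length (10024 and 5478 bases for Pdgfra and Pdgfrb in GENCODE vM21), Pdgfra was 2.23 ± 0.109 times Pdgfrb in mutants and 2.30 ± 0.392 times in controls (SD, n = 3 each). On the log2 scale the ratio was 2.02 in mutants and 2.06 in controls, a difference of -0.03 (exact permutation test, two-sided, p = 0.90, adjusted p = 0.90 over 5 such tests). With 3 libraries against 3 the test cannot go below 0.10, and the difference was 0.02 without control replicate 1 and 0.06 without control replicate 3.

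**Figure D1:**
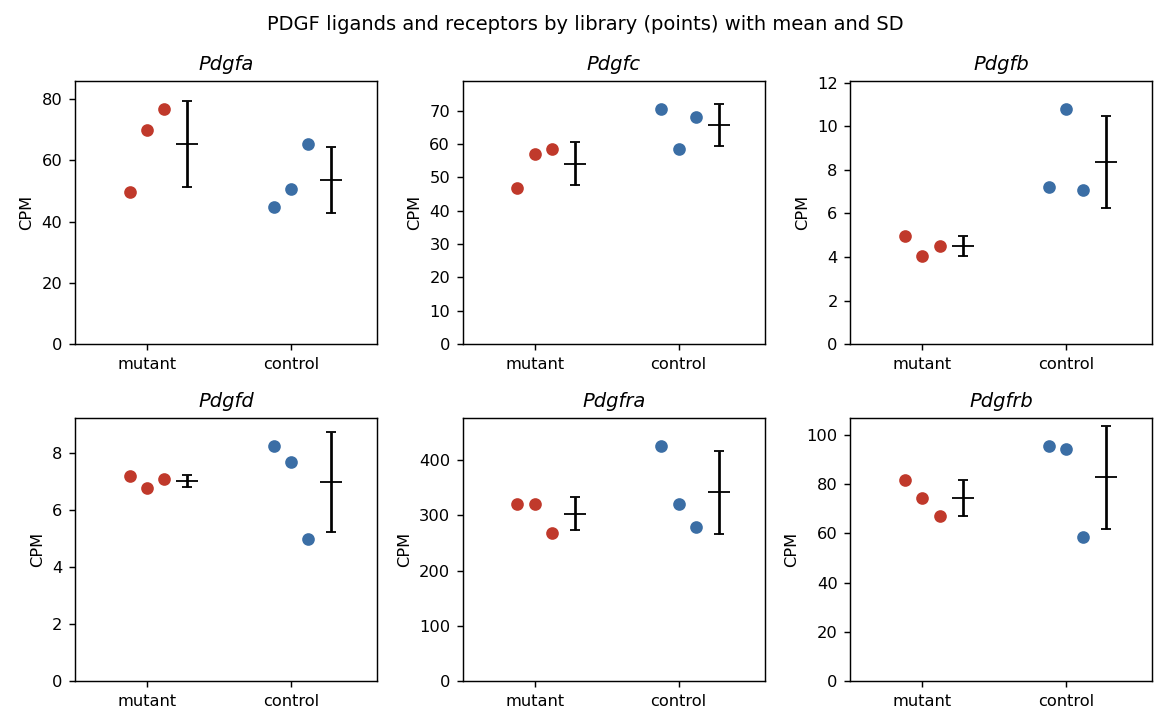
Level of each PDGF gene in CPM (vertical axes, each from 0) in 3 mutant libraries (red, left) and 3 control libraries (blue, right), with the mean and SD of each group in black. Pdgfb is the 1 gene whose groups do not overlap, and control replicate 1 is the highest point for Pdgfra at 425.7 CPM.

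Pdgfa encodes the A chain, a ligand of the α receptor made in embryos by epithelium and muscle among other tissues. It measured 49.5, 69.9 and 76.6 CPM in mutant replicates 5, 6 and 7, against 44.7, 50.5 and 65.4 CPM in control replicates 1, 2 and 3. Mutant replicates 6 and 7 lay above all controls while mutant replicate 5 lay among them, so the groups overlapped. Means were 65.3 ± 14.1 CPM in mutants and 53.5 ± 10.7 CPM in controls (SD, n = 3 each). The log2 change was 0.28 ± 0.19 (SE), with limma's adjusted p at 0.421 and a fold interval of 0.905 to 1.62. It ranged from 0.15 without mutant replicate 7 and 0.16 without control replicate 1 to 0.43 without control replicate 3 and 0.46 without mutant replicate 5. Pdgfa lies on chromosome 5 (138976014 to 138997370, minus strand) and overlaps 6330403L08Rik on the opposite strand, which measured 20.6 CPM in mutants and 19.9 CPM in controls. The use of strand in counting was not given in the sources used here. Without it, reads of the overlapping stretch cannot be assigned to either gene.

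Pdgfc (chromosome 3, 81036416 to 81214040, plus strand) encodes the C chain, which is secreted in a latent form and activated by proteases that cut off its CUB domain. It measured 46.8, 57.1 and 58.4 CPM in mutant replicates 5, 6 and 7, against 70.4, 58.4 and 68.2 CPM in control replicates 1, 2 and 3. Mutant replicates 6 and 7 were level with control replicate 2 within counting error, so the groups overlapped. Mutant replicate 5 lay below these libraries, and control replicates 1 and 3 lay above them. Means were 54.1 ± 6.37 CPM in mutants and 65.7 ± 6.38 CPM in controls (SD, n = 3 each). The log2 change was -0.28 ± 0.12 (SE), and limma gave an unadjusted p of 0.0452 and an adjusted p of 0.223. The fold interval was 0.685 to 0.995. Gm16000 on the opposite strand measured 3.86 CPM in mutants and 1.95 CPM in controls. In the alternatives tried, no library left out turned the direction, with log2 changes from -0.36 to -0.18.

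Pdgfb (chromosome 15, 79995874 to 80014977, minus strand) encodes the B chain, the endothelial signal to pericytes, and it was the lowest of the 6 genes in the mutants. It measured 4.97, 4.03 and 4.51 CPM in mutant replicates 5, 6 and 7, against 7.20, 10.8 and 7.09 CPM in control replicates 1, 2 and 3. Every mutant library lay below every control library, and control replicate 2 was the highest. The mean was 4.50 ± 0.471 CPM in mutants and 8.35 ± 2.10 CPM in controls (SD, n = 3 each). The log2 change was -0.75 ± 0.20 (SE), with an unadjusted p of 0.00473. The adjusted p from limma, 0.101, missed the threshold of 0.05. The fold interval, which is for CPM + 1 and not for the ratio of mean CPM, was 0.436 to 0.815. These values rested on about 61, 53 and 68 reads in the mutants and about 90, 108 and 91 reads in the controls. Counting error alone gave exact Poisson 95% intervals of 3.80 to 6.38, 3.02 to 5.27 and 3.50 to 5.71 CPM for mutant replicates 5, 6 and 7. For control replicates 1, 2 and 3 they were 5.79 to 8.85, 8.84 to 13.0 and 5.71 to 8.70 CPM. The interval of mutant replicate 5 overlapped those of control replicates 1 and 3, and that of mutant replicate 7 reached the lower end of control replicate 3. Leaving out each library in turn gave log2 changes from -0.84 to -0.57, with adjusted p from 0.117 to 0.301. Pdgfb was the 1 member in the authors' deposited table of 2432 filtered genes, whose filter was not given in the sources used here. By the values, every gene in that table had group means at least 1.5 times apart.

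Pdgfd (chromosome 9, 6168584 to 6378850, plus strand) encodes the D chain, a ligand of the β receptor that is also released by proteolysis. It measured 7.17, 6.77 and 7.09 CPM in mutant replicates 5, 6 and 7, against 8.24, 7.69 and 4.98 CPM in control replicates 1, 2 and 3. The mutant libraries lay close together and inside the range of the controls. Means were 7.01 ± 0.214 CPM in mutants and 6.97 ± 1.74 CPM in controls (SD, n = 3 each). The log2 change was 0.03 ± 0.20 (SE), with limma's adjusted p at 0.943 and a fold interval of 0.749 to 1.40. The sign of so small a value flipped with median-ratio scaling of the libraries and without control replicate 3 (-0.16). Ddi1 lies on the opposite strand within the span of Pdgfd and measured 4.03 CPM in mutants and 1.42 CPM in controls.

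Levels of different ligands were compared per kb of exon, with lengths of 3119 bases for Pdgfa, 5089 for Pdgfc, 4161 for Pdgfb and 3154 for Pdgfd. On this scale the order of mean levels was Pdgfra, Pdgfa, Pdgfrb, Pdgfc, Pdgfd and Pdgfb in mutants, at 30.2 ± 3.00, 21.0 ± 4.52, 13.6 ± 1.35, 10.6 ± 1.25, 2.22 ± 0.0679 and 1.08 ± 0.113 CPM per kb (SD, n = 3). In controls the same order held at 34.1 ± 7.51, 17.2 ± 3.42, 15.1 ± 3.83, 12.9 ± 1.25, 2.21 ± 0.552 and 2.01 ± 0.505 CPM per kb (SD, n = 3). Neighbours in that order did not overlap in the mutant libraries. In controls, Pdgfa and Pdgfrb, Pdgfrb and Pdgfc, and Pdgfd and Pdgfb were neighbours that did not differ beyond their spread. With the longest transcript as the length, Pdgfc stood above Pdgfrb, at 15.4 and 13.7 CPM per kb in mutants and 18.7 and 15.3 CPM per kb in controls.

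The α receptor ligands Pdgfa and Pdgfc made up most of the ligand transcripts, 90.3 ± 2.12% in mutants and 87.5 ± 3.41% in controls (SD, n = 3 each). Within that total, the share of Pdgfa was 55.6, 61.0 and 62.4% in the mutants, against 44.1, 49.5 and 55.7% in the controls. The mutant with the least Pdgfa and the control with the most met at the edge of their groups, so the shares overlapped by a narrow margin (difference 9.89 percentage points, exact permutation test, two-sided, p = 0.20, adjusted p = 0.333). For Pdgfc the share was 32.2, 30.5 and 29.2% in the mutants, against 42.6, 35.1 and 35.6% in the controls, with every mutant below every control. That difference of -7.10 points gave p = 0.10, the smallest the exact test allows, and an adjusted p of 0.25. The shares of a library are parts of the same total, so a higher share of Pdgfa lowers the others and the tests are not independent. By CPM alone the groups of Pdgfc overlapped.

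Pdgfb took 4.18, 2.64 and 2.75% of the ligand total in the mutants, against 5.32, 7.92 and 4.52% in the controls (difference -2.73 points, exact permutation p = 0.10, adjusted p = 0.25). These groups did not overlap either. The share of Pdgfd was 6.50 ± 1.27% in mutants and 6.56 ± 2.07% in controls (SD, n = 3 each; exact permutation p = 0.90, adjusted p = 0.90). None of the 5 tests passed after adjustment. Per kb, Pdgfa exceeded Pdgfc 1.73, 2.00 and 2.14 times in the mutants, against 1.04, 1.41 and 1.57 times in the controls. This ratio was formed after the values were seen and carries no test.

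**Figure D2:**
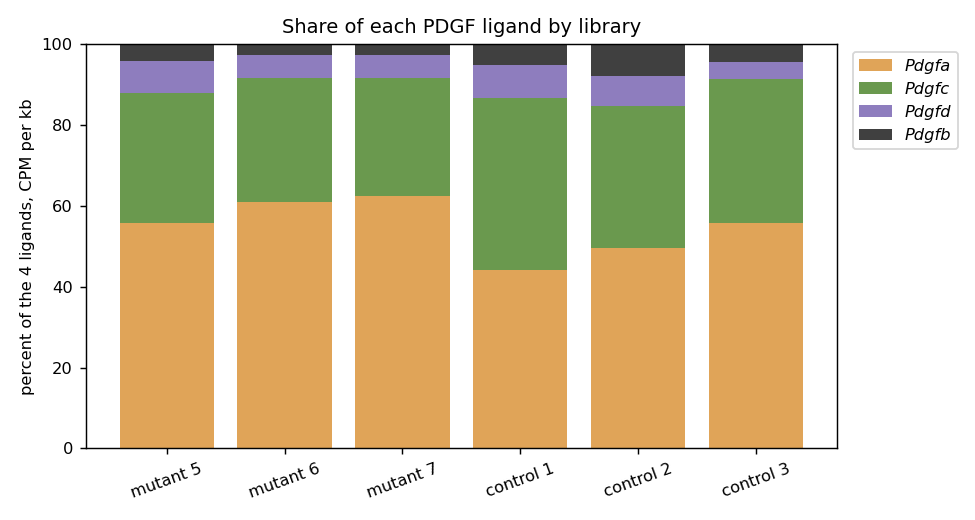
Share of each PDGF ligand in the summed CPM per kb of the 4 ligands (vertical axis, percent) in mutant replicates 5, 6 and 7 and control replicates 1, 2 and 3. The Pdgfc band spans 29.2 to 32.2% in mutants and 35.1 to 42.6% in controls, and Pdgfb is the thinnest band in every mutant library.

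The other genes of the pathway were taken from lists, and no member of any list was called. Among 10 measured genes that activate or bind the ligands, 2 had an unadjusted p below 0.05, both lower in the mutant, close to the share of 21.4% over all genes. The median log2 change was -0.23, against 0.04 over all genes. Plat, tissue plasminogen activator, which activates PDGF-C, measured 9.61, 6.61 and 8.55 CPM in the mutants, against 18.7, 9.98 and 11.7 CPM in the controls. The groups lay apart, with mutant replicate 5 just under control replicate 2, at a log2 change of -0.61 ± 0.24 (SE) and an adjusted p of 0.187 in limma. Without control replicate 1, the highest library, the change was -0.36. Furin, a proprotein convertase that matures PDGF-A and PDGF-B, averaged 93.5 ± 9.38 CPM in mutants and 118.3 ± 22.8 CPM in controls (adjusted p = 0.225). Lrp1, a coreceptor of the β receptor, averaged 513.5 and 612.1 CPM, and Sparc, a matrix protein that binds PDGF-B, 547.0 and 631.8 CPM, in mutants and controls in that order.

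Of 28 adaptors and effectors that the activated receptors engage, 5 had an unadjusted p below 0.05 and all 5 were lower in the mutant, a share below the 21.4% of all genes. The list median was -0.09. Map2k1, the kinase MEK1 of the ERK cascade, measured 34.2, 30.03 and 32.5 CPM in the mutants, against 47.1, 41.5 and 43.3 CPM in the controls. The groups did not overlap, and the log2 change of -0.44 ± 0.10 (SE) had an adjusted p of 0.0773 in limma. Akt1, a kinase downstream of PI3K, averaged 165.6 ± 1.97 CPM in mutants and 199.5 ± 6.59 CPM in controls (adjusted p = 0.111). Mapk3, the kinase ERK1, averaged 29.1 and 39.3 CPM, and the adaptor Crkl 58.0 and 69.1 CPM, in mutants and controls in that order (adjusted p = 0.148 and 0.186).

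Among 12 phosphatases, ubiquitin ligases and other proteins that restrain receptor signalling, 1 was higher and 1 lower at an unadjusted p below 0.05, a share below the 21.4% of all genes, and the median was -0.00. Rasa2, a GTPase-activating protein for Ras, averaged 59.3 ± 6.39 CPM in mutants and 46.3 ± 1.44 CPM in controls (adjusted p = 0.115), and Inppl1, the lipid phosphatase SHIP2, 75.4 ± 3.57 and 93.0 ± 10.1 CPM (adjusted p = 0.152). The ubiquitin ligases Cbl and Cblb measured 139.4 and 88.0 CPM in mutants and 123.3 and 75.1 CPM in controls. Of 20 measured growth factor response genes 2 were lower at an unadjusted p below 0.05, fewer than the 21.4% of all genes. They were Myc (29.7 ± 2.23 CPM in mutants and 37.9 ± 2.09 CPM in controls) and Srf (31.8 ± 2.17 and 39.0 ± 4.86 CPM), with adjusted p of 0.122 and 0.220. The immediate early genes Egr1 and Jun measured 24.3 and 119.7 CPM in mutants and 29.7 and 138.1 CPM in controls, and the list median was -0.03.

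The related receptors and ligands of the VEGF, KIT and CSF1 systems had a median of 0.14 over 13 measured genes, with 3 higher and 1 lower at an unadjusted p below 0.05, where all genes gave 21.4%. Kitl, the ligand of KIT, averaged 43.5 ± 2.11 CPM in mutants and 33.3 ± 3.15 CPM in controls (adjusted p = 0.106), and Kit itself 59.4 ± 12.01 and 41.2 ± 10.9 CPM (adjusted p = 0.188). Vegfa, an endothelial growth factor, averaged 101.0 ± 1.71 CPM in mutants and 82.6 ± 4.84 CPM in controls (adjusted p = 0.113), and Vegfb 29.3 ± 0.824 and 35.01 ± 3.20 CPM (adjusted p = 0.219). Flt3l, a cytokine ligand, was near 1 CPM in both groups (1.033 CPM in mutants and 0.901 CPM in controls), and Il34 and Flt3 of this list were not analysed here.

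**Figure D3:**
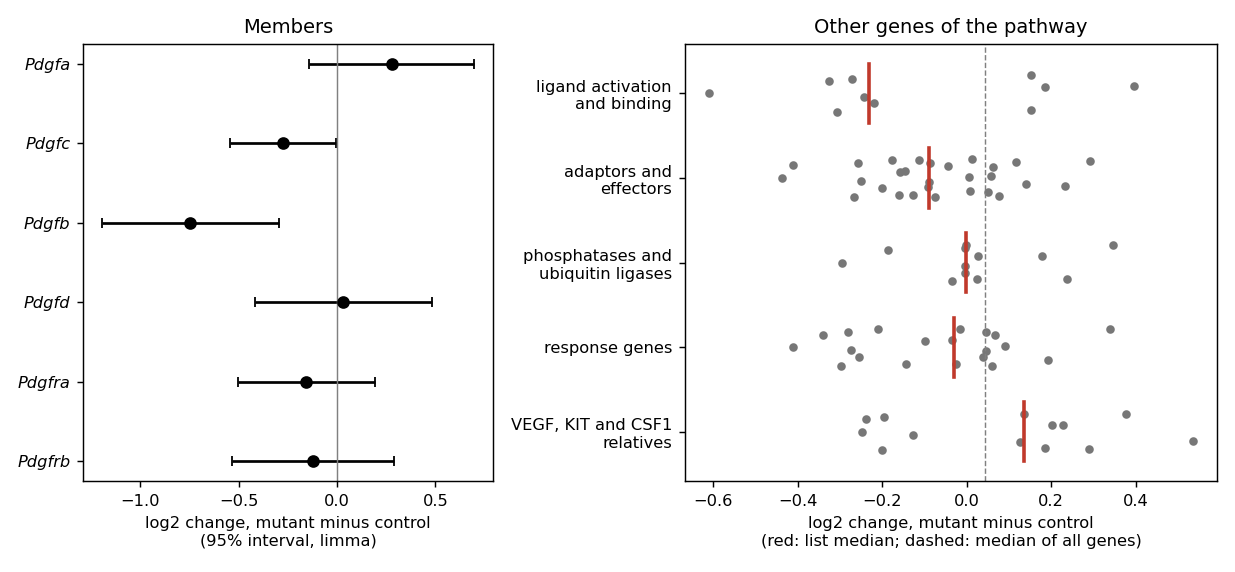
Left, log2 change of each PDGF gene, mutant minus control, with its 95% interval from limma. Right, the log2 change of every measured gene in 5 lists of the pathway (grey points), the median of each list (red bar) and the median of all genes (dashed line, 0.04). The interval of Pdgfb runs from -1.20 to -0.30, and none of the points was called.

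Markers of the cells that carry these genes were summed in each library. The 10 mesenchyme markers, led by the collagen genes Col1a1 and Col3a1, summed to 9084, 8535 and 6492 CPM in mutant replicates 5, 6 and 7, against 10857, 9380 and 7078 CPM in control replicates 1, 2 and 3. The libraries stood in the same order by Pdgfra as by this sum. For Pdgfra, however, mutant replicates 5 and 6 and control replicate 2 were tied within counting error. The counting intervals of mutant replicate 7 (260.2 to 276.8 CPM) and control replicate 3 (270.6 to 289.0 CPM) overlapped too. Pdgfra per 100 CPM of the sum was 3.81 ± 0.306 in mutants and 3.76 ± 0.297 in controls (SD, n = 3 each), with the mutant mean not lower on this scale. Most of this sum was Col1a1, Col1a2 and Col3a1, so the value is mainly Pdgfra relative to collagen transcripts. Of the 10 markers 1 had a positive log2 change and 9 negative ones. Mutant means were 0.983 and 1.04 times control for Col1a1 and Col1a2. For Col3a1, Twist1 and Twist2 they were 0.695, 0.755 and 0.644 times control. In bulk tissue, fewer cells of a type and less RNA per cell cannot be told apart.

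Pericyte markers (8 measured, led by Notch3 and Cspg4) summed to 231.6 to 298.0 CPM in mutants and 272.6 to 355.5 CPM in controls, and Pdgfrb per 100 CPM of them was 28.03 ± 0.818 in mutants and 25.7 ± 3.81 in controls (SD, n = 3 each). Endothelium markers (9 measured, led by Cdh5 and Pecam1) summed to 190.0 to 272.7 CPM in mutants and 168.6 to 268.9 CPM in controls. In limma 0 of 9 genes were called or had an unadjusted p below 0.05, against 0.479% and 21.4% of all genes. Whether endothelium was unchanged was not tested. Pdgfb per 100 CPM of the endothelium markers was 1.82, 1.92 and 2.37 in the mutants, against 2.68, 4.07 and 4.20 in the controls, and these groups did not overlap either. The 6 smooth muscle markers summed to 79.0 to 92.1 CPM in mutants and 149.7 to 231.5 CPM in controls. That sum was mostly Acta2, smooth muscle actin, which fell to 56.8 ± 5.42 CPM in mutants, against 156.9 ± 43.9 CPM in controls (adjusted p = 0.0296 in limma). The call held without control replicate 2 and was lost without any other library (adjusted p from 0.0754 to 0.133). Of the other smooth muscle genes Tagln and Myh11 were lower in mutants without being called. Lmod1 had a log2 change of -0.08, and Cnn1 and Myocd had positive ones (0.29 and 0.07). Lmod1, Cnn1 and Myocd were low, with means of 2.36, 1.08 and 1.38 CPM in mutants and 2.58, 0.653 and 1.27 CPM in controls. Skeletal muscle markers, given below, were also lower in mutants. In control replicates 1, 2 and 3 Acta2 measured 189.3, 107.0 and 174.4 CPM, and the skeletal muscle gene Actc1 471.8, 234.1 and 364.5 CPM. Which cells the Acta2 reads came from was not tested. Erythroid markers summed to 782.8 to 1371 CPM in mutants and 1608 to 4762 CPM in controls. Their part in the Pdgfb values was not tested.

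Epithelium markers, led by Krt15 and Krt14, summed to 1790, 2555 and 2389 CPM in mutant replicates 5, 6 and 7, against 1330, 2122 and 1900 CPM in control replicates 1, 2 and 3. Pdgfa was lowest in each group in the library with the lowest epithelial sum, but the library with the highest sum, mutant replicate 6 or control replicate 2, did not have the highest Pdgfa of its group. Per 100 CPM of these markers it was 2.90 ± 0.264 in mutants and 3.06 ± 0.591 in controls (SD, n = 3 each). Skeletal muscle markers, another tissue that makes Pdgfa, went the other way and summed to 4564 to 5687 CPM in mutants and 6891 to 14504 CPM in controls. Of these 13 genes 6 were called lower, against 0.479% of all genes called in either direction. These calls were not made in the fits, given below, that called 0 genes. The remaining markers of the tissue summed to 113.7 to 133.1 CPM for Schwann cells, 169.6 to 727.3 CPM for neurons, 30.4 to 40.5 CPM for macrophages, 323.0 to 784.8 CPM for osteoblasts and 466.9 to 720.2 CPM for cartilage in mutants. In controls they summed to 127.2 to 156.6, 466.4 to 891.5, 41.7 to 49.1, 133.1 to 356.6 and 312.8 to 675.6 CPM in that order.

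**Figure D4:**
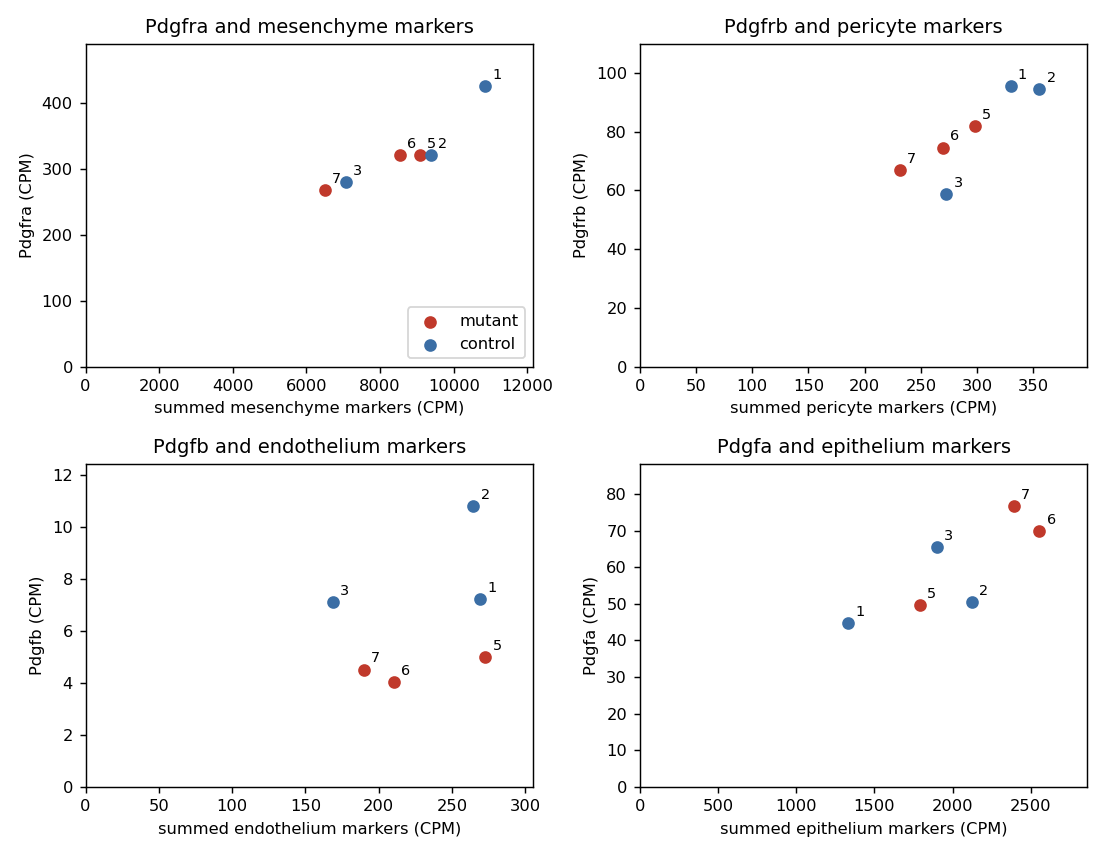
Level of Pdgfra, Pdgfrb, Pdgfb and Pdgfa in CPM (vertical axes) against the summed CPM of mesenchyme, pericyte, endothelium and epithelium markers (horizontal axes), all from 0. Each point is a library with its replicate number, mutant in red and control in blue. Pdgfra follows the order of the mesenchyme sum, with 3 libraries near 320 CPM tied within counting error. Mutant replicate 7 and control replicate 3 also overlap within counting error. The 3 mutant points for Pdgfb lie below the 3 control points while the endothelium sums of the groups overlap.

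The genes whose log2 levels followed each PDGF gene most closely over the 6 libraries were read from 9828 candidates. These had a mean of at least the table's median and matched the annotation, and pseudogenes and clone or model identifiers were left out. For Pdgfra they were Mmp14, a membrane matrix metalloproteinase, Rnf139, Ramp2 and Slc36a4, with Pearson r of 0.991, 0.989, 0.989 and 0.978. Pdgfrb was followed by Tmem248, Pcnx4, Tgfbr2, the type II TGF-β receptor, and Fan1 (r of 0.997, 0.989, 0.988 and 0.988). For Pdgfb the 4 genes were Triobp, Ctxn1, Cad and Mgat4b (0.989 to 0.994), and for Pdgfc Lsm6, Mex3a, Kat2a and Cbr1 (0.989 to 0.998). Pdgfa was followed by Paip2b, Yod1, Rad18 and Stx18 (0.993 to 0.997), and Pdgfd by Paqr8, Slc37a3, Zscan20 and Cpd (0.986 to 0.993). With 6 libraries many genes reach such values, between 76 and 304 of the 9828 having r above 0.9 with a given member, so these names are a description and carry no p.

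The targeted gene and the Cre locus were read as a check of the labels. Ctnnb1, which encodes β-catenin, averaged 599.8 ± 29.1 CPM in mutants and 718.1 ± 59.0 CPM in controls (SD, n = 3 each; adjusted p = 0.183 in limma). Its groups did not overlap, as was so for 27.8% of all genes. Reads outside the deleted exons and in cells without Cre still count. Osr2, into whose locus the Cre is placed, fell to 16.1 ± 3.22 CPM in mutants, against 46.9 ± 11.2 CPM in controls (adjusted p = 0.0285 in limma). That call too held only without control replicate 2 when 1 library was left out, with adjusted p from 0.0691 to 0.130 otherwise. The Wnt target Axin2 averaged 37.1 CPM in mutants and 53.9 CPM in controls (adjusted p = 0.104 in limma). Of these genes only Osr2 was called, and its level does not measure the loss of β-catenin. Counted reads came to about 12274643 to 15090564 per mutant library and 10018389 to 12840881 per control library. Among all genes 105 were called in limma, a count that was 0 without mutant replicate 5, mutant replicate 6, control replicate 1 or control replicate 3, 2 without mutant replicate 7 and 452 without control replicate 2. None of the PDGF genes was called in any of these fits.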

How the data were processed

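RNA of soft palate at E14.0 was sequenced in 3 mutant and 3 control libraries. The submitters' processing notes name the aligner STAR and the build mm10. The deposited tables hold CPM values that the authors scaled to a sum of 1000000 per library with 0.0001 added to each value, as found from the values. The constant was removed here. Of the annotation, the counting and its use of strand nothing was found in the labels, and 0 columns of per-sample values were left unused. No counts were used: within 0.02 of a read, 63.4 to 69.3% of values below 1.5 CPM were whole reads, so whole reads were not recovered and a count model was not fitted. For Pdgfb and Pdgfd 12 of 12 values were whole, and for the other 4 genes 2 of 24. Read numbers are estimates from the step between low values, and intervals from them cover counting error only.

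Differences were fitted in limma 3.58.1 (R 4.3.3) on log2(CPM + 1) with an intensity trend, no filter and Benjamini-Hochberg adjustment over 21938 genes at 0.05. Ratios and shares were compared by an exact permutation test. Exon lengths are unions of exons in GENCODE vM21, the assembly of mm10. Members, lists and tests were chosen with earlier results of these data known. Of each pathway list the called genes and the 4 with the smallest p are named, and for each member the 4 genes of highest correlation. From each marker list up to 2 of the most abundant are named, and any with a mean under 1 CPM. Flt3l, Col1a2, Twist1, Twist2, Myh11, Lmod1, Myocd and Actc1 are named outside these rules. Alternatives were a pseudocount of 0.1, a filter at a mean of 1 CPM, other scalings, other prior variances, a threshold of 0.1, each library left out and other lengths. Values relative to marker sums were added after seeing the data.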

Additional observations from a re-analysis of the deposited data

How the results depend on the processing

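Under the alternatives tried, 81 of 84 values of the 6 PDGF genes kept their direction and stayed past no threshold. The 3 that turned were Pdgfd with median-ratio scaling (-0.0042) and without control replicate 3, and Pdgfra without control replicate 1, whose ranges with 1 library left out were -0.1618 to 0.1515 and -0.2905 to 0.0117. Across the alternatives that kept all libraries, the adjusted p of Pdgfb ranged from 0.0825 to 0.108. The number of genes called, 105, became 0 with a prior variance without a trend, 174 with robust fitting and 999 at a threshold of 0.1, and ranged from 0 to 452 with 1 library left out. The 105 calls were 43 higher and 62 lower in mutants. Median-ratio scaling called 38 higher and 81 lower, upper-quartile scaling 66 higher and 64 lower, and robust fitting 86 higher and 88 lower. With the threshold at 0.1 there were 622 higher and 377 lower, and without control replicate 2 there were 254 higher and 198 lower. The difference in the log2 Pdgfra to Pdgfrb ratio, mutant minus control, ranged from -0.18 to 0.0644 with 1 library left out. The difference in the share of Pdgfd, mutant minus control, ranged from -1.24 to 0.68 points in the same way. It was 0.20 points with no division by length. Relative to marker sums, an addition made after seeing the data, the log2 differences of Pdgfra, Pdgfrb and Pdgfa turned to 0.0154, 0.1368 and -0.0609. The other genes picked by the naming rules, not all of which are described above, gave 671 values. Of these 12 lost their call, all of them Acta2 and Osr2. This was with 1 library other than control replicate 2 left out or with a prior variance without a trend (adjusted p = 0.0758 and 0.0702 in limma). Another 5 values gained a call: Map2k1, Myh3 and Krt15 at the threshold of 0.1, and Ttn and Myh3 without control replicate 2. A further 12 turned, all with 1 library left out: Col1a1 (-0.22 to 0.16), Cdh5 (-0.31 to 0.12), Krt14 (-0.25 to 0.35), Pecam1 (-0.0576 to 0.25) and Ptprc, which is not described above (-0.0396 to 0.29). The cause of these shifts was not tested. Depth limits Pdgfb and Pdgfd most, which rest on 53 to 108 reads per library. No paired analysis was possible because the groups share no replicate number.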
